A study of Mus musculus with 4 samples.

Results

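The 36 genes described here encode the cell's protein-folding machinery and the regulators that adjust it under stress. They were taken as a list of heat shock and unfolded protein response genes, chosen with earlier results of these data known. Each was found on the array through the transcript accession of its probes. All 36 were measured, out of 21320 genes and unnamed transcripts tested, with 61 probes in all, of which 60 were well above background. The samples were a pair of nodes that drain the pancreas, the gastric lymph node on the left and the pancreatico-duodenal node on the right. Both came from each of 4 female mice of the inbred strain NOD, which develops autoimmune diabetes spontaneously. The mice were 12 weeks old, and the labels name no treatment or genetic change. RNA of whole nodes was hybridised to 1 Agilent 2-colour array per mouse, with the gastric node labelled with Cy5 (red) and the pancreatico-duodenal node with Cy3 (green). Every log2 ratio here divides the gastric by the pancreatico-duodenal signal. Negative values are therefore lower levels in the gastric node, and a value of 1 is a 2-fold difference.

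Secreted and membrane proteins fold in the endoplasmic reticulum (ER). When unfolded proteins build up there, the sensors Ern1 (IRE1), Atf6 and Eif2ak3 (PERK) raise chaperones and degradation factors, and PERK also favours translation of the transcription factor Atf4, which raises amino acid, redox and feedback genes. In the cytosol the transcription factor Hsf1 raises the Hsp70, Hsp90 and Hsp40 chaperones. In lymph nodes this machinery is best known for its high demand in antibody-secreting plasma cells and for the response of dividing lymphocytes to activation.

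Each node carried the same dye in all 4 mice, and dye and node cannot be told apart. In whole nodes, fewer cells of a type and less RNA per cell cannot be told apart either. The share of probes well above background was 67.1% to 71.4% in the gastric and 59.6% to 62.6% in the other channel. Having only 4 arrays limits the precision. Markers of the labelled tissue were present, with all 8 B cell, all 7 matched T cell and all 8 stromal markers measured. Of 8 macrophage markers 6 were lower on the gastric side, with list medians of -0.48, -0.87, -1.31 and -0.79 in mice 1 to 4. Their summed intensity ranged from 41862 to 77328 in the gastric and from 86946 to 124200 in the pancreatico-duodenal channel, and none of the 8 was at background. Of 6 dendritic cell markers 3 were lower and none was higher, with medians of -0.43, -0.38, -0.69 and -0.31. Of 8 cell division genes 2 were higher, Pcna and Mcm4, and none was lower. None of 7 adipocyte markers passed, but their medians swung between mice, at 1.72, -1.93, 0.36 and -1.67. The part of these cells in the results below was not tested.

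Of the 36 genes, 5 were lower in the gastric node, 1 was higher and 30 did not pass (limma, Benjamini-Hochberg adjusted p under 0.05 over all 21320 features). The lower ones were Ppp1r15a, Hspa1b, Atf4, Calr and Bag3, and the higher one was Hsph1. The 6 differences ran from 1.21-fold for Bag3 to 1.45-fold for Ppp1r15a with a normexp offset of 50. Hspa1b depended on that choice, with a log2 ratio of -0.42 here, -0.65 at an offset of 10 and -0.94 with the scanner software's processed signals. The 6 genes made up 16.7% of the list, beside 7.54% of all features called. The 5 lower genes made up 13.9% beside 4.45% of all features, and the 1 higher gene 2.78% beside 3.09%. These shares were not matched for brightness. Below a mean log2 intensity of 8 lay 4 of the 36 genes but 9595 of all features, of which 4.62% were called. In steps of 1 log2 unit from 8 to 15, where the rest of the 36 lay, 7.41% to 11.1% of features were called. All 6 calls were lost without mouse 2, mouse 3 or mouse 4 (limma, 0 genes each, with 10, 8 and 8 at an unadjusted p under 0.05). Of all 21320 features none was higher there, 0, 3 and 1 were lower, and 4343, 5732 and 4299 had an unadjusted p under 0.05. Without mouse 1 the count was again 6, with Hspa1b lost and Hspe1 gained, beside 844 higher and 1323 lower of all features. With median centring of each array in place of loess, the counts turned to 30 higher and 1 lower, and Calr, Atf4 and Bag3 were above 0. Of all 21320 features 12821 were higher and 2066 lower in that setting. No gene of the 36 passed either with arrays scaled to a common spread, with an intensity trend in eBayes or with the nodes of a mouse treated as unpaired (limma, 7, 9 and 4 genes at an unadjusted p under 0.05). Of all 21320 features none passed with the scaling or the trend, and 1 was higher and 5 were lower with unpaired nodes. In these settings 5456, 6712 and 2678 features had an unadjusted p under 0.05.

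The mean log2 ratio was below 0 for 23 of the 36 genes (63.9%), beside 41.9% of all features. With median centring the direction was the opposite, with 32 of the 36 above 0 and 27 above the median of all features. With loess the sign was the same in all 4 mice for 12 of the 36 genes, 10 of them lower and 2 higher, a share of 33.3% beside 41.1% of all features. Mouse 3 and mouse 4 each had 27 of 36 genes below 0, mouse 2 had 22 and mouse 1 had 17. The list median was 0.01, -0.02, -0.16 and -0.09 in mice 1 to 4, and that of all features lay between 0.01 and 0.03.

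**Figure D1:**
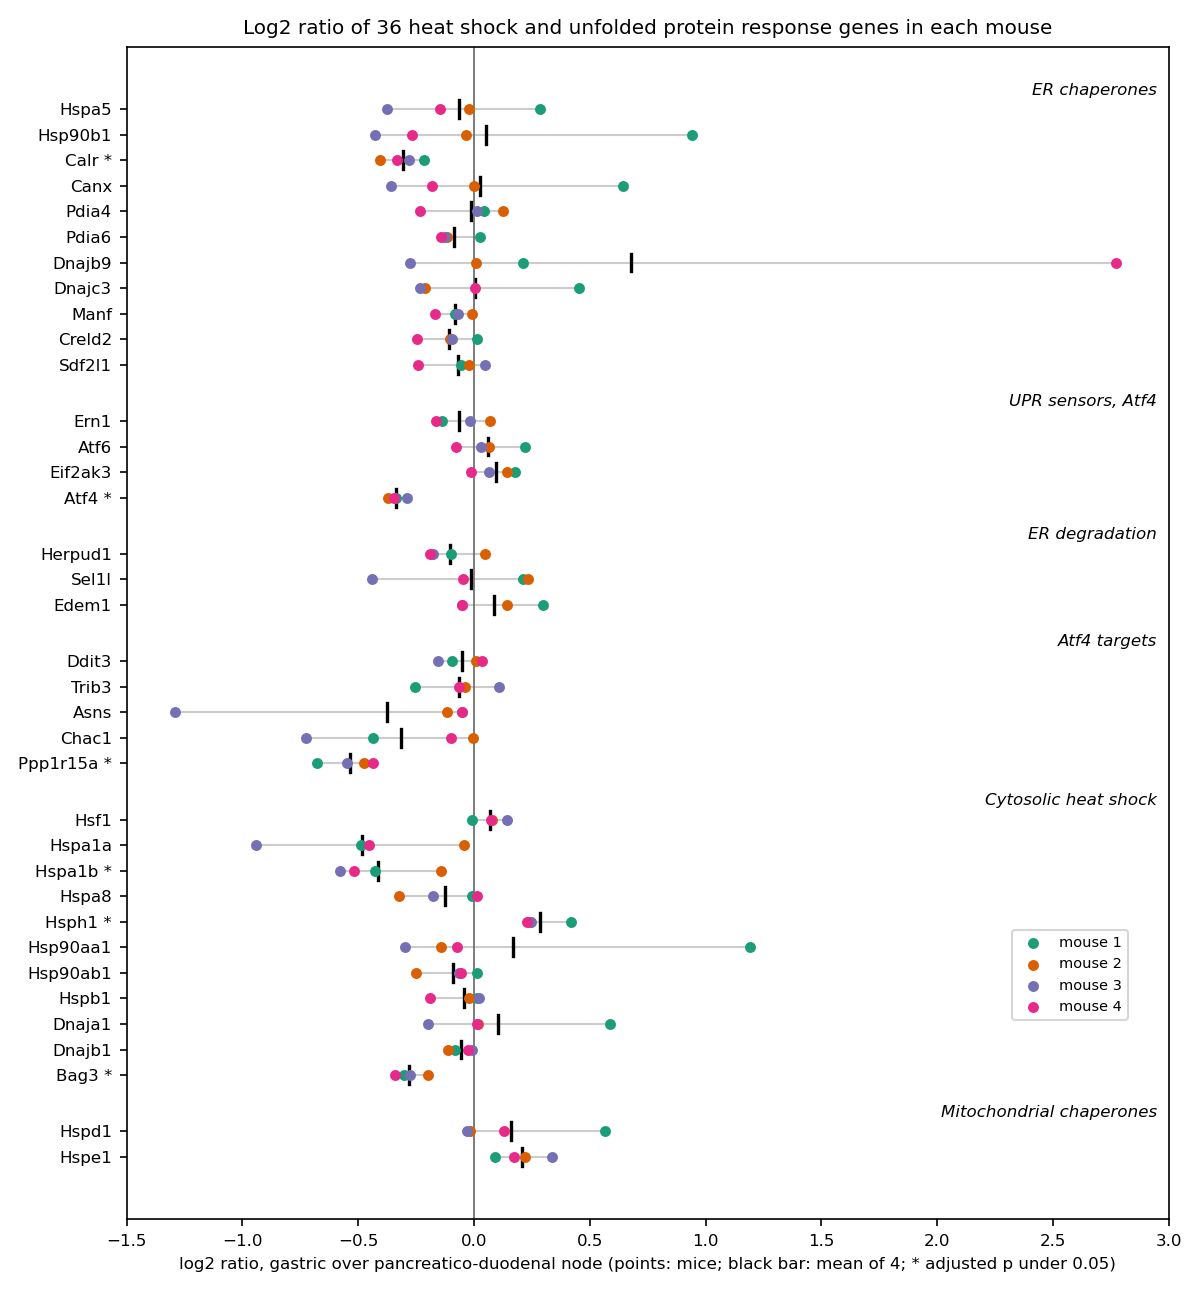
Log2 ratio of each of the 36 genes (horizontal axis, gastric over pancreatico-duodenal node) by role, with 1 point per mouse, a black bar for the mean of 4 and an asterisk for genes past the test. The 6 marked genes have all 4 points on 1 side of 0, while Dnajb9 in mouse 4 (2.77), Hsp90aa1 in mouse 1 (1.19) and Asns in mouse 3 (-1.29) stand far from the other mice.

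Among the 11 chaperones and folding factors of the ER, 1 was lower, none was higher and 10 did not pass. The share called was 9.09%, beside 7.54% of all features. Calr encodes calreticulin, a calcium-binding chaperone of newly made glycoproteins. It read -0.21, -0.41, -0.28 and -0.33 in mice 1 to 4. All 4 mice were thus lower on the gastric side, by similar amounts, with a mean of -0.31 ± 0.08 (SD, n = 4; 95% interval -0.43 to -0.18; adjusted p = 0.0330). A further, dimmer probe of Calr read -0.46 ± 0.08 (SD, n = 4) and was below 0 in every mouse as well.

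The other lectin chaperone and the most abundant ER chaperones did not pass. Canx, which encodes calnexin, the membrane-bound relative of calreticulin, read 0.64, 0.00, -0.36 and -0.18. Hspa5 encodes BiP, the Hsp70 of the ER and the usual readout of the unfolded protein response, and read 0.28, -0.02, -0.37 and -0.14. Its mean was -0.06 ± 0.27 (SD, n = 4), with a 95% interval from -0.33 to 0.20. Hsp90b1, the Hsp90 of the ER, read 0.94, -0.03, -0.42 and -0.27, and its further probe 1.06, -0.08, -0.21 and -0.03. For these 3 genes mouse 1 was high and mouse 3 low on the gastric side, and the mice disagreed in sign. Mouse 3 was also the mouse with the most exocrine pancreas signal in its pancreatico-duodenal channel, as given below beside Asns, and its part in these values was not tested.

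None of the remaining ER factors passed. The disulphide isomerase gene Pdia4 was at -0.01 ± 0.15 and Pdia6 at -0.09 ± 0.08 (SD, n = 4). The further probes of Pdia6 were at 0.02 ± 0.14 and, below 0 in every mouse, at -0.28 ± 0.16 (SD, n = 4). Manf, a secreted ER stress factor, was at -0.08 ± 0.07 and Sdf2l1, a partner of BiP, at -0.07 ± 0.12. Creld2, another ER stress-inducible gene, read 0.01, -0.10, -0.09 and -0.24, a mean of -0.11 ± 0.11 (SD, n = 4). Dnajc3, a co-chaperone of BiP, was at 0.00 ± 0.32, with 3 further probes between -0.01 and 0.23. For Manf, Pdia6 and Creld2 the 95% intervals of the brightest probes reached no lower than -0.24.

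Dnajb9, which encodes the BiP co-chaperone ERdj4, had the largest mean of the list, 0.68, and its SD of 1.41 was larger still. Its brightest probe read 0.21, 0.01, -0.27 and 2.77 in mice 1 to 4. In mouse 4 the spot gave a mean signal of 62.4 in the pancreatico-duodenal channel, against 439.4 to 560.1 in the other mice, and 1111.9 in the gastric channel. The 2 further probes of Dnajb9 read -0.22 and -0.08 in mouse 4, so the high ratio was seen at 1 of its 3 probes. Without mouse 4 the mean of the brightest probe was -0.02.

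Plasma cell markers were read beside the ER chaperones. Of 9 measured markers 1 was lower, the receptor gene Tnfrsf17, and none was higher. The medians were 0.07, -0.10, 0.00 and -0.19 in mice 1 to 4, and 2, 6, 4 and 7 of the 9 were below 0. Single markers lay further out in both directions in mouse 3. There Fkbp11 read -1.14 and Jchain -0.79, while Pou2af1 read 0.44 and Irf4 0.36. Their summed intensity ranged from 35612 to 51710 in the gastric and from 37907 to 52403 in the pancreatico-duodenal channel, and none of the 9 was at background. The part of plasma cells in the ER chaperone values was not tested.

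The ER stress response element (ERSE) is the promoter motif through which Atf6 acts on ER chaperone genes, a CCAAT box followed after 9 bases by CCACG. Promoter sequences from RefSeq on the build GRCm38.p6 were matched to 30 of the 36 genes and searched over 250 bases before the start, on both strands. The exact motif was found in 7 of 10 ER chaperone genes (Hspa5, Hsp90b1, Calr, Canx, Pdia6, Dnajc3 and Creld2), in none of the 20 other members and in 35 of 27025 genes in all (0.13%). The windows of Hspa5 and Calr are shown because both carry the same element, while only Calr passed the test (means -0.06 and -0.31). A difference between these genes was not tested. Capitals mark the element, which runs from base -65 to -47 in Hspa5 and, in the opposite direction, from base -162 to -144 in Calr.
Hspa5, chr2:34771840-34772089, plus strand: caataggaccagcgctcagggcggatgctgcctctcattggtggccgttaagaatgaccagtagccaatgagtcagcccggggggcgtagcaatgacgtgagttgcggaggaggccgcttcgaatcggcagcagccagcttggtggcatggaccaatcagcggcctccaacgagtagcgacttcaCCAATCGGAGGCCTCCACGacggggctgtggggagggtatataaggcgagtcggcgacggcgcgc
Calr, chr8:84846932-84847181, minus strand: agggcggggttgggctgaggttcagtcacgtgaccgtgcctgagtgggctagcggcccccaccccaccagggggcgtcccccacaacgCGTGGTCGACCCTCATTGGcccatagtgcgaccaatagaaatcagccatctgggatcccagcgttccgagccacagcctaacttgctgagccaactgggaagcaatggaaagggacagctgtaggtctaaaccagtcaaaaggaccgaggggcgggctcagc

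The stress sensors themselves did not pass. Ern1 encodes IRE1, the kinase and RNase that splices Xbp1 mRNA. It read -0.14, 0.07, -0.02 and -0.17, a mean of -0.06 ± 0.11 (SD, n = 4). Eif2ak3, the PERK gene, read 0.18, 0.14, 0.07 and -0.01, and 3 of 4 mice were thus slightly higher on the gastric side. Atf6, the membrane-bound transcription factor gene, was at 0.06 ± 0.12 and its further probe at -0.00 ± 0.07 (SD, n = 4). The 95% intervals of all 3 sensors lay between -0.20 and 0.22.

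Atf4, the transcription factor gene downstream of PERK and of the other kinases of the integrated stress response, was lower. It read -0.34, -0.37, -0.29 and -0.34 in mice 1 to 4. This was the tightest spread of the 6 genes that passed, with a mean of -0.34 ± 0.03 (SD, n = 4; 95% interval -0.44 to -0.23; adjusted p = 0.0254). It was measured by 1 probe. Atf4 is controlled largely through translation, which an RNA array does not measure.

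Of 5 targets of Atf4, 1 was lower, none was higher and 4 did not pass. This 1 gene is 20% of the group, beside 7.54% of all features called. Ppp1r15a encodes GADD34, the phosphatase subunit that reverses the phosphorylation of eIF2 alpha. It read -0.68, -0.47, -0.55 and -0.44 in mice 1 to 4. With a mean of -0.53 ± 0.11 (SD, n = 4; 95% interval -0.67 to -0.40; adjusted p = 0.0228) it was the largest difference among the genes that passed at this offset. With an offset of 10, with processed signals and with median centring Hspa1b was larger, and with median centring Ppp1r15a no longer passed (-0.08, adjusted p = 0.322).

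The other targets of Atf4 varied more, or lay near 0. Asns, which encodes asparagine synthetase, read -0.05, -0.11, -1.29 and -0.05. The low mouse was mouse 3, in which all 18 measured exocrine pancreas markers were also lower on the gastric side, with a list median of -4.69 against -0.33, 0.20 and 0.62 in mice 1, 2 and 4. In mouse 3 the summed intensity of these markers was 74833 in the gastric and 2034519 in the pancreatico-duodenal channel, and elsewhere 7648 to 95271 in both channels, with none at background. Without mouse 3 the mean of Asns was -0.07, and the part of pancreatic tissue in its value was not tested.

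Chac1, which encodes a glutathione-degrading enzyme, read -0.44, -0.00, -0.73 and -0.10, a mean of -0.32 ± 0.33 (SD, n = 4; adjusted p = 0.161). Ddit3, the gene of the pro-apoptotic factor CHOP, was at -0.05 ± 0.09 (SD, n = 4), with a 95% interval from -0.18 to 0.08. Trib3, a pseudokinase gene that restrains Atf4, was at -0.06 ± 0.15, and its further probe at -0.21 ± 0.17 (SD, n = 4). The mean was below 0 for all 5 targets with loess normalization, while with median centring in place of loess Asns, Ddit3 and Trib3 were above 0.

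Atf4 acts with C/EBP factors through a composite element, searched here as TGATGNAA on both strands. It was found before the start of Asns and Chac1 among the 5 targets, and of Herpud1 among the other 25 matched members, beside 3.91% of all genes. The Asns window is shown because its element, from base -23 to -16, overlaps the only other match there, a GAANNTTC sequence, so the capitals run over both. No match in the window of Ppp1r15a, Ddit3 or Trib3 says only that these letters are not within those 250 bases.
Asns, chr6:7693210-7693459, minus strand: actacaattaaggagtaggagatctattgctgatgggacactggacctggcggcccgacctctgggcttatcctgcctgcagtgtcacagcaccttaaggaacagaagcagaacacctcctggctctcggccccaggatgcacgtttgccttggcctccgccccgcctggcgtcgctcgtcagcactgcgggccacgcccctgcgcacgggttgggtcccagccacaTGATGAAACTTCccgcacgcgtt

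Early response genes, which rise within minutes of cell handling or stimulation, were read beside the targets of Atf4. Of 8 measured, 1 was lower in the gastric node, Atf3, and none was higher. The list medians were -0.03, 0.16, -0.03 and 0.05 in mice 1 to 4, the summed intensity ranged from 18262 to 21438 in the gastric and from 17493 to 21047 in the other channel, and none of the 8 was at background. Their part in the values of Ppp1r15a and Atf4 was not tested.

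None of the 3 genes of ER-associated degradation passed by its brightest probe. Herpud1, an adaptor of the degradation complex, read -0.10, 0.05, -0.18 and -0.19. Edem1, which encodes a mannosidase-like lectin that marks glycoproteins for removal, read 0.30, 0.14, -0.05 and -0.05, while its further probes were at -0.14 and -0.01. Sel1l, the scaffold of the ubiquitin ligase complex, read 0.21, 0.23, -0.44 and -0.05 at the brightest probe and -0.23, -0.25, -0.42 and -0.23 at a dimmer one. The dimmer Sel1l probe passed when every probe was tested on its own (adjusted p = 0.0393), beside 7.92% of all 27603 probes called, and the brightest did not (adjusted p = 0.962).

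Of 11 cytosolic heat shock genes, the inducible Hsp70 gene Hspa1b and the co-chaperone gene Bag3 were lower, Hsph1 was higher and 8 did not pass. The 3 called genes are 27.3% of the group, beside 7.54% of all features. With median centring Hspa1a and Hspa1b were the only ones of the 11 below 0. Hspa1b read -0.42, -0.14, -0.58 and -0.52 in mice 1 to 4. All 4 mice were lower, least so mouse 2, with a mean of -0.42 ± 0.19 (SD, n = 4; 95% interval -0.62 to -0.21; adjusted p = 0.0443). Its further probe was not above background on any array.

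Hspa1a, the neighbouring inducible Hsp70 gene, read -0.49, -0.04, -0.94 and -0.45, and its further probe -0.37, -0.13, -0.996 and -0.47. Its mean of -0.48 ± 0.37 (SD, n = 4) was the larger of the pair, but with the wider spread it did not pass (adjusted p = 0.0873). Hspa1a and Hspa1b are near-identical copies, so how far their probes tell them apart is uncertain. With the scanner software's own processed signals in place of the normexp correction, Hspa1b read -0.94 and Hspa1a -0.74.

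Bag3, a co-chaperone of Hsp70 in selective autophagy and a classical target of Hsf1, read -0.30, -0.20, -0.28 and -0.34. The mice lay close together around a mean of -0.28 ± 0.06 (SD, n = 4; 95% interval -0.39 to -0.17; adjusted p = 0.0333). Hsph1 encodes Hsp110, the nucleotide exchange factor that restarts the Hsp70 cycle. It read 0.42, 0.24, 0.25 and 0.23, higher in all 4 mice and most so in mouse 1, with a mean of 0.28 ± 0.09 (SD, n = 4; 95% interval 0.16 to 0.41; adjusted p = 0.0396). Atf4, Ppp1r15a, Bag3 and Hsph1 were each measured by 1 probe.

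**Figure D2:**
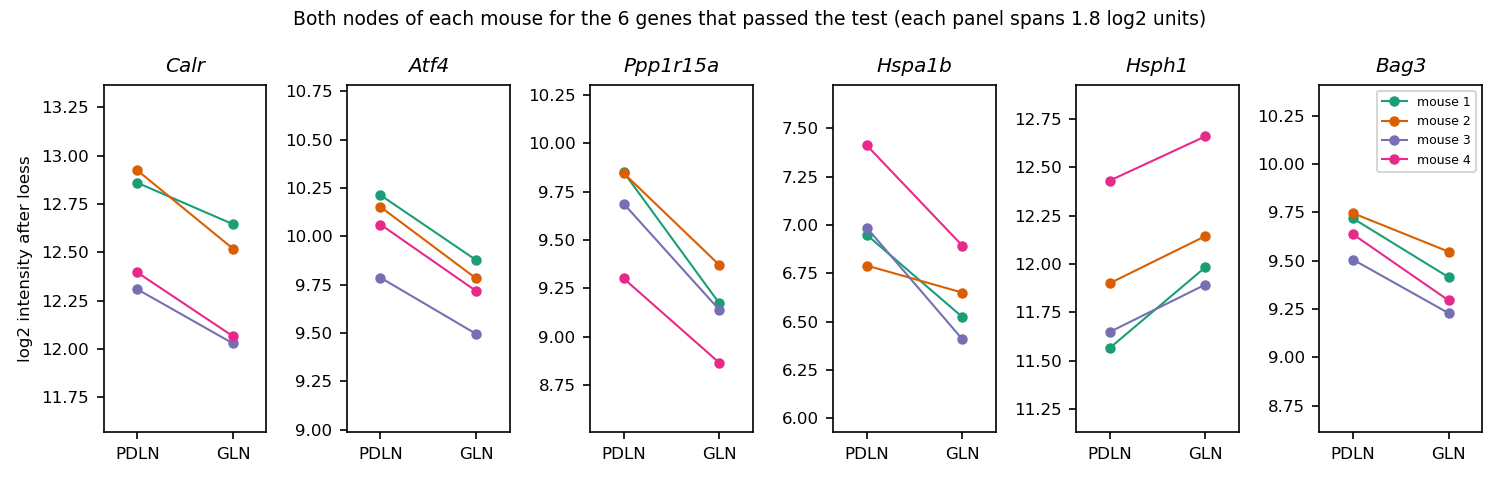
Normalized log2 intensity (vertical axis, after loess) of the 6 genes that passed the test, with 1 line per mouse joining its pancreatico-duodenal node (PDLN) to its gastric node (GLN); each panel spans the same number of log2 units. Every line falls towards the gastric node for Calr, Atf4, Ppp1r15a, Hspa1b and Bag3 and rises for Hsph1; with median centring the mean turned above 0 for Calr, Atf4 and Bag3.

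Hsf1, the transcription factor gene of this response, was at 0.07 ± 0.06 (SD, n = 4), with a 95% interval from -0.04 to 0.18. The constitutive chaperone genes Hspa8 and Hsp90ab1 were also near 0 by their brightest probes, as was Dnajb1. Hspa8, the constitutive Hsp70 gene, read -0.01, -0.32, -0.18 and 0.01, and its further probe was lower, at -0.45 ± 0.26 (SD, n = 4; adjusted p = 0.0553 with every probe tested on its own). Hsp90ab1, the constitutive Hsp90 gene, was at -0.09 ± 0.11 and its further probe at -0.26 ± 0.15 (SD, n = 4). Dnajb1, an Hsp40 gene, was at -0.06 ± 0.05 and its further probe at -0.23 ± 0.14 (SD, n = 4). For each of these 3 genes the dimmer probe gave the lower mean.

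Hsp90aa1, the stress-inducible Hsp90 gene, read 1.19, -0.14, -0.30 and -0.07. Mouse 1 alone was higher on the gastric side, and without it the mean was -0.17. Dnaja1, an Hsp40 partner of Hsc70, read 0.59, 0.02, -0.20 and 0.02, with mouse 1 again the highest. The small heat shock protein gene Hspb1 was at -0.04 ± 0.10 (SD, n = 4).

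Mouse 1 was the highest mouse for the Hsp90 genes of the ER and the inducible cytosolic form, for Canx, Dnaja1 and Hspd1. These 5 genes were over 0.50 in mouse 1, which is 13.9% of the 36. In the same mouse 9.62% of all features were over 0.50, against 0.507% to 0.886% in the other mice. High ratios in mouse 1 were thus not limited to the folding genes.

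The heat shock element to which Hsf1 binds consists of alternating inverted repeats, searched here as GAANNTTC and as TTCNNGAA, each its own reverse complement. Either form was found within 250 bases of a start in 5 of 7 matched cytosolic heat shock genes (Hspa1a, Hspa1b, Hspb1, Dnaja1 and Hsph1), in both mitochondrial chaperone genes and in 14.5% of all genes. Among the other matched members Eif2ak3 and Asns also held it. None was found in these windows for Bag3 or Dnajb1, and none in the 10 matched ER chaperone genes. Hsf1, Hspa8, Hsp90aa1 and Hsp90ab1 had no matched promoter. The windows of Hspa1a and Hspa1b are shown because they are identical at 247 of 250 bases (98.8%), and that of Hsph1 because it also holds the element while its gene read in the opposite direction. Capitals mark the element, which starts at base -104 in both Hsp70 genes and at base -33 in Hsph1.
Hspa1a, chr17:34972157-34972406, minus strand: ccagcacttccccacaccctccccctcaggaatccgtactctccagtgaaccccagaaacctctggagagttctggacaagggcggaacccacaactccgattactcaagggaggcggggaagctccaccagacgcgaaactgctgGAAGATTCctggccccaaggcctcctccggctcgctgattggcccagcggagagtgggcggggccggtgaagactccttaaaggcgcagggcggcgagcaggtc
Hspa1b, chr17:34959239-34959488, minus strand: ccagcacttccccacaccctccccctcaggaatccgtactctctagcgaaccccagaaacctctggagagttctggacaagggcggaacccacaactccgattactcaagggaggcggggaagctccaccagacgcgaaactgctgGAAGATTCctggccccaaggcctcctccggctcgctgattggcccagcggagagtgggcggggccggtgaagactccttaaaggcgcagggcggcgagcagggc
Hsph1, chr5:149636337-149636586, minus strand: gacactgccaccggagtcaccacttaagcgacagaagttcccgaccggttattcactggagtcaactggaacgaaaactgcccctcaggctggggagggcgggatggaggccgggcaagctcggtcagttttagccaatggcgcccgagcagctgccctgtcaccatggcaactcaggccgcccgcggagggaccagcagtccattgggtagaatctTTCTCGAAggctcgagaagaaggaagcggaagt

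Neither mitochondrial chaperone passed. Hspe1, which encodes the co-chaperonin Hsp10, read 0.09, 0.22, 0.34 and 0.17, higher in all 4 mice, with a mean of 0.21 ± 0.10 (SD, n = 4; adjusted p = 0.0741). Without mouse 1 its adjusted p was 0.0495. Hspd1, the gene of the chaperonin Hsp60, read 0.57, -0.02, -0.03 and 0.13, and its further probe was at 0.01 ± 0.24 (SD, n = 4). The window of Hspe1 and 1 of the 2 windows of Hspd1, on opposite strands, share 215 of 250 bases and both hold the heat shock element, while the other Hspd1 window holds none. The ratios of this gene pair nevertheless differed in which mouse was highest, mouse 3 for Hspe1 and mouse 1 for Hspd1.

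Set side by side, the role groups had median log2 ratios near 0 except the targets of Atf4 and the mitochondrial pair. The mean of the 4 mouse medians was -0.10 ± 0.13 for ER chaperones, -0.23 ± 0.24 for targets of Atf4 and -0.09 ± 0.07 for cytosolic heat shock genes (SD, n = 4). It was 0.18 ± 0.10 for the mitochondrial pair, -0.01 ± 0.08 for the sensors with Atf4 and 0.03 ± 0.18 for degradation genes, beside 0.02 ± 0.01 for all features (SD, n = 4). The medians of the Atf4 targets were -0.25, -0.04, -0.55 and -0.06, and those of the ER chaperones 0.05, -0.02, -0.23 and -0.18. These ranges overlapped, and no difference between groups was tested. Mouse 3, with the pancreatic signal, was the lowest in both groups, and without it the means were -0.12 for the Atf4 targets and -0.05 for the ER chaperones. With median centring all 6 groups were above 0, from 0.20 for the Atf4 targets to 0.82 for the mitochondrial pair, beside a median of 0.32 for all features.

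**Figure D3:**
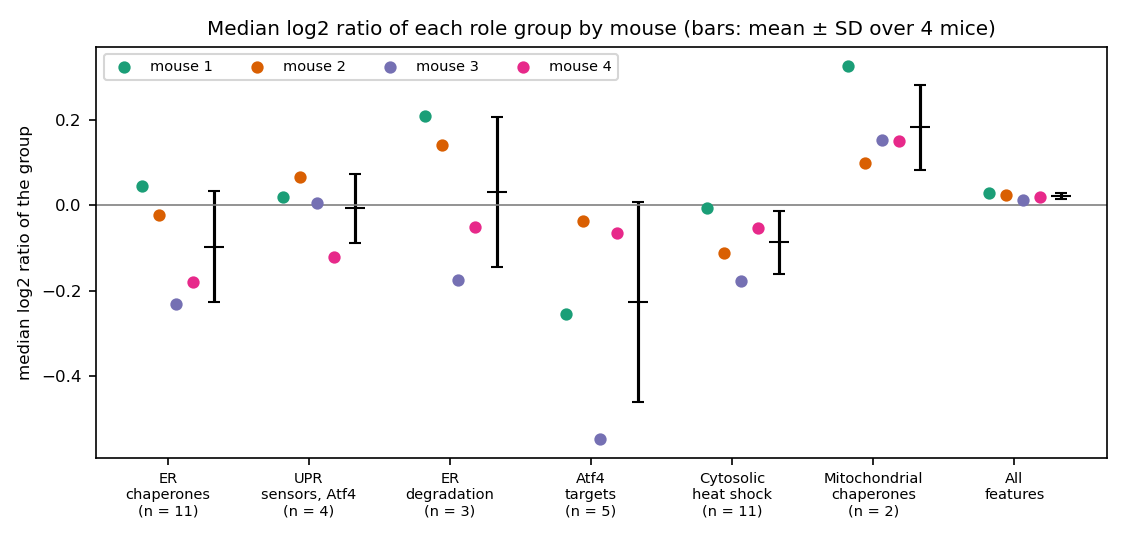
Median log2 ratio (vertical axis) of each role group in each mouse, with the mean ± SD of the 4 mouse medians as a bar and all features at the right. By the mean of the 4 mice the targets of Atf4 are lowest (-0.23) and the mitochondrial pair highest (0.18), but the order of the groups differs between mice; with median centring in place of loess all groups were above 0.

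The direction of many of these genes, a number of them abundant, differed between loess and median centring. The part of brightness in this was not tested. Loess removes a trend with brightness by construction, so a flat median after it says nothing on the choice of normalization. After loess the median of all features stayed between -0.01 and 0.04 up to a mean log2 intensity of 15, which includes all 36 genes. With median centring it went from -0.01 below 8 to 0.71 between 14 and 15. In that setting 32 of the 36 genes were above 0, and the signs of Calr (0.30), Atf4 (0.15) and Bag3 (0.19) turned, while Ppp1r15a (-0.08), Hspa1b (-0.41) and Hsph1 (0.88) kept theirs. Relative to the median of all features, 0.32 there, Calr lay at -0.02, Bag3 at -0.14, Atf4 at -0.17, Ppp1r15a at -0.40, Hspa1b at -0.74 and Hsph1 at 0.55. Calr was thus at that median, against -0.34 with loess.

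**Figure D4:**
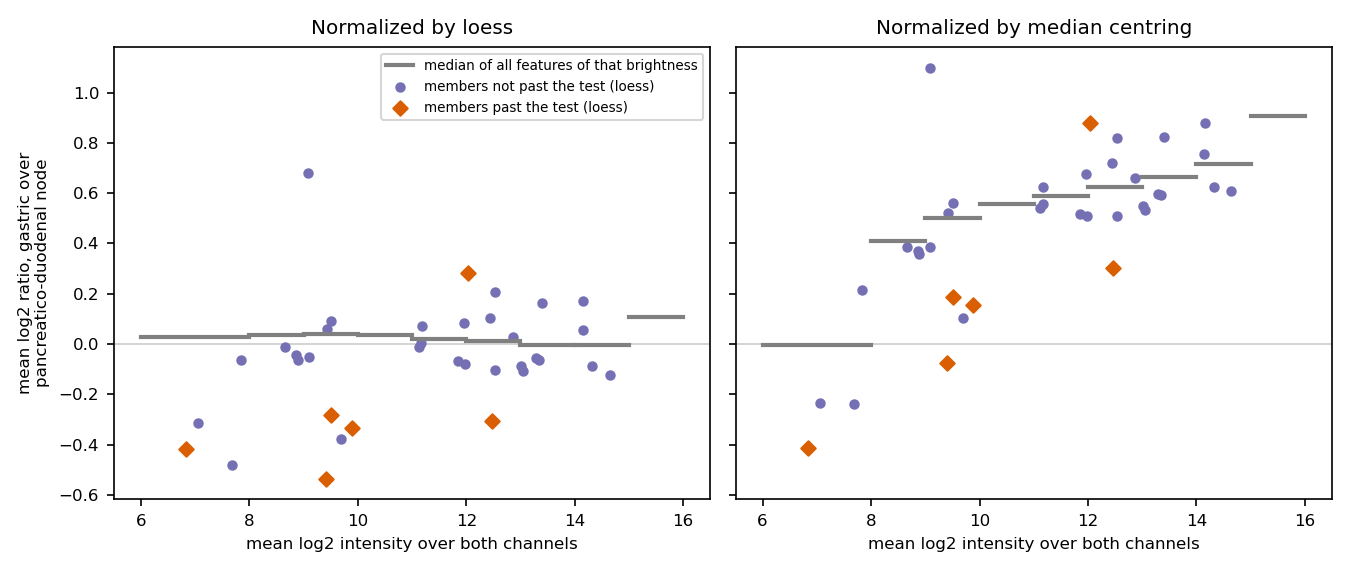
Mean log2 ratio of the 36 genes (vertical axis) against the mean log2 intensity over both channels (horizontal axis), with loess on the left and median centring on the right; grey lines are medians of all features by brightness, the outermost ones covering all dimmer and all brighter features. The grey line stays near 0 on the left, where loess removes such a trend by construction. It climbs to 0.71 between 14 and 15 on the right, where 32 of the 36 genes are above 0. Among these are 3 of the 5 that were lower with loess (diamonds mark the 6 that passed).

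Several genes were read by more than 1 probe, which gives a check within each array. Of 17 genes with at least 2 kept probes, 11 had the same sign of the mean at all of them and 6 did not (Canx, Pdia6, Dnajb9, Dnajc3, Atf6 and Edem1). The probe means of these 6 lay between -0.28 and 0.23, apart from the brightest probe of Dnajb9 (0.68). When every kept probe was tested on its own, 8 of 60 passed (7.92% of all kept probes did), both of Calr, the dimmer one of Sel1l and those of Atf4, Ppp1r15a, Hspa1b, Hsph1 and Bag3.

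**Figure D5:**
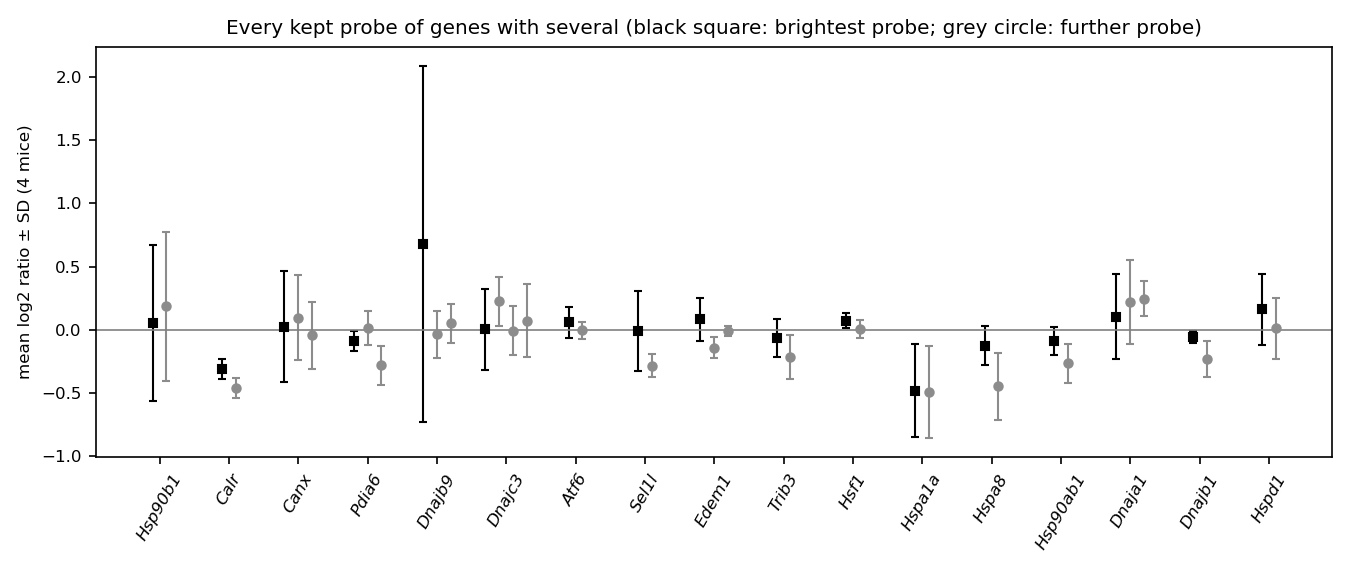
Mean log2 ratio ± SD over 4 mice (vertical axis) of every kept probe of the 17 genes with several, with the brightest probe as a black square and further probes as grey circles. Both Calr probes lie below 0 by more than their SD (-0.31 and -0.46), and the brightest Dnajb9 probe carries an SD of 1.41 against 0.16 to 0.19 for its further probes; with median centring the brightest Calr probe was above 0.

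The same pathways were followed in 114 further genes, 109 of them measured. Of these 2 were higher and 8 lower in the gastric node, 9.17% in all beside 7.54% of all features. Their mean was below 0 in 69 of 109 cases (63.3%), beside 41.9% of all features. With median centring 90 were higher and 1 was lower, so the direction turned for this list as well, beside 12821 higher and 2066 lower of all features. None of the 109 passed (limma) without mouse 2, mouse 3 or mouse 4 (26, 30 and 26 at an unadjusted p under 0.05). Of all features none was higher there and 0, 3 and 1 were lower, with 4343, 5732 and 4299 at an unadjusted p under 0.05. None of the 109 passed either with scaled arrays, with the intensity trend or with unpaired nodes (27, 34 and 14 at an unadjusted p under 0.05). Of all features none passed with the scaling or the trend, and 1 was higher and 5 were lower unpaired. Their unadjusted counts were 5456, 6712 and 2678.

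Among 30 further genes of ER folding and degradation 4 were lower (13.3%, beside 4.45% of all features) and none was higher. The largest was Pdia5, a disulphide isomerase gene, which read -0.38, -0.53, -0.73 and -0.73, a mean of -0.59 ± 0.17 (SD, n = 4; adjusted p = 0.0254). Edem2, a mannosidase gene of glycoprotein degradation, was at -0.51 ± 0.09, Xbp1, the transcription factor gene spliced by IRE1, at -0.28 ± 0.11 and Sil1, an exchange factor gene of BiP, at -0.20 ± 0.03 (SD, n = 4). With median centring Xbp1 and Sil1 turned above 0, and Pdia5 (-0.18, adjusted p = 0.0699) and Edem2 (-0.04, adjusted p = 0.602) no longer passed.

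In the wider programme of Atf4 3 of 33 genes were lower (9.09%, beside 4.45% of all features). The 1 higher gene was 3.03%, beside 3.09%. Cebpb, the gene of a C/EBP partner of Atf4, read -0.32, -0.46, -0.62 and -0.52, a mean of -0.48 ± 0.12 (SD, n = 4; adjusted p = 0.0254). Atf3, a stress-induced relative of Atf4, was at -0.39 ± 0.18 and Slc3a2, which encodes the heavy chain of amino acid transporters, at -0.31 ± 0.05 (SD, n = 4). Psph, a serine synthesis gene, was the one that was higher, at 0.38 ± 0.14 (SD, n = 4). With median centring Slc3a2 turned above 0, Cebpb (-0.06, adjusted p = 0.450) and Atf3 (-0.07, adjusted p = 0.472) no longer passed, and Psph still did.

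Of 29 further genes listed under cytosolic heat shock 1 was lower (3.45%, beside 4.45% of all features) and none was higher. The lower one is not a cytosolic chaperone gene. It was Serpinh1, which encodes the collagen chaperone Hsp47 and belongs to the ER of collagen-making cells, at -0.50 ± 0.23 (SD, n = 4; adjusted p = 0.0404), and it turned to 0.11 with median centring. Of 8 stromal markers 1 was lower, the collagen gene Col1a1, at -0.61 ± 0.25 (SD, n = 4), and none was higher, with list medians of -0.05, -0.14, -0.20 and -0.14 in mice 1 to 4. Their summed intensity ranged from 118704 to 177747 in the gastric and from 121109 to 143024 in the other channel, none was at background, and their part in the Serpinh1 value was not tested. Of the 8 subunits of the cytosolic chaperonin TRiC 1 was higher, Cct5, at 0.21 ± 0.01 (SD, n = 4), and none was lower. This 1 subunit is 12.5% of the 8, beside 3.09% of all features higher. None of 9 further genes of mitochondrial protein quality control passed, with Hspa9, the mitochondrial Hsp70 gene, at -0.05 ± 0.15 and its exchange factor gene Grpel1 at -0.03 ± 0.09 (SD, n = 4).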

How the data were processed

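Expression was measured in both nodes of 4 mice, which shared an array in each mouse. Agilent Feature Extraction 10.2.1.3 made the deposited scanner files, which hold the mean and background intensity of each spot in both channels, per the file headers. The same files hold the software's processed intensity and a log10 ratio made from it, also per the file headers. Log2 ratios fill the series table that the authors deposited, and these matched the processed red over green signals to within 5.1e-05 (column medians -0.15, -0.06, -0.03 and -0.03). Flags for signal above background, saturation and outliers are other values of 0 or 1, per the file headers. No spot was saturated.

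Mean signals were corrected with normexp (offset 50) and loess (span 0.3) in limma 3.58.1 under R 4.3.3. Control and outlier spots had weight 0. Probes well above background in 1 channel on at least 3 arrays were kept (27603 of 41174). Accessions were matched to RefSeq symbols of GRCm38.p6 for 24844 probes, while the array annotation was made on mm9. The brightest kept probe stood for a gene, which left 21320 features. The test of each mean against a log2 ratio of 0 used lmFit and eBayes, with Benjamini-Hochberg adjustment over all features. Intervals are limma's 95% intervals.

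The members, gene lists and groups were chosen with earlier results of these data known. Genes given mouse by mouse are those that passed and the 3 largest means of each role group, with others added to complete each group; from each further list up to 4 that passed are named, or the 2 brightest. The steps were tested on simulated data. Alternatives covered background, normalization, filter, probe choice, variance model, pairing, threshold, series table and each mouse left out.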

Additional observations from a re-analysis of the deposited data

Results flagged for a closer look

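In 5 of the 36 genes 1 of the 4 mice stood apart from the rest by Dixon's criterion. Its nominal chance rate is about 1 gene in 20. The share of all features flagged was not counted, so the 5 cannot be called an excess. Dnajb9 read 2.77 in mouse 4 against -0.27 to 0.21 in the other mice, and its 2 further probes did not share this value. Asns read -1.29 in mouse 3 against -0.11 to -0.05. Mouse 1 was the highest in the other 3 genes. There Hsp90aa1 read 1.19 against -0.30 to -0.07, Hsph1 read 0.42 against 0.23 to 0.25, and Pdia6 read 0.028 against -0.14 to -0.12. Among the 5, Hsph1 is the only gene that passed the test, and without mouse 1 it still did (0.24, adjusted p = 0.0378).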

How the results depend on the processing

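The counts of 6 of the 36 genes and 10 of the 109 further genes were within 1.5 times of their value with normexp offset 10, loess span 0.1, the filter in both channels, no filter, averaged probes and every probe on its own. They fell to 2 and 3 with the scanner software's processed signals and to 2 and 3 with the authors' series table, where Ppp1r15a and Hspa1b passed. They were 0 and 0 with limma on arrays scaled to a common spread, 0 and 0 with an intensity trend in eBayes and 0 and 0 with unpaired channels, with 7, 9 and 4 of the 36 genes at an unadjusted p under 0.05. The last of these is the fit with no replicate block. Of all 21320 features none passed with the scaling or the trend, and 1 was higher and 5 were lower with unpaired channels. The trend and the unpaired fit leave the means as they were, and the series table holds the processed signals. Leaving out each mouse gave 0 to 6 of the 36 and 0 to 10 of the further genes. Over all features 844 were higher and 1323 lower without mouse 1. Without mice 2, 3 and 4 none was higher, and 0, 3 and 1 were lower. At an adjusted p under 0.1 (limma) 8 of the 36 genes passed, with 2 higher and 6 lower. The further genes numbered 24 there, with 6 higher and 18 lower. Of all 21320 features 2151 were higher and 2055 lower at that threshold. The cause was not tested for the processed signals, the series table, the scaling or the trend.

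Median centring in place of loess gave 31 and 91 calls, 30 and 90 of them higher, where the bright features as a whole are higher (the medians by brightness are given above). Of all 21320 features 12821 were called higher and 2066 lower. The group medians became 0.50 for ER chaperones, 0.37 for the sensors with Atf4, 0.56 for degradation genes, 0.20 for targets of Atf4, 0.54 for cytosolic heat shock genes and 0.82 for the mitochondrial pair. In all, 19 of the 36 and 62 of the 109 further means changed sign. Among the 36 and the 12 further genes named, the sign turned for these that passed in either setting, Hspa5 0.59, Calr 0.30, Pdia4 0.54, Pdia6 0.55, Manf 0.51, Creld2 0.53, Sdf2l1 0.52, Ern1 0.21, Atf4 0.15, Herpud1 0.51, Sel1l 0.39, Ddit3 0.38, Trib3 0.36, Hspa8 0.61, Hsp90ab1 0.62, Hspb1 0.37, Dnajb1 0.60, Bag3 0.19, Xbp1 0.26, Sil1 0.39, Slc3a2 0.32, Serpinh1 0.11, Grpel1 0.58 and Hspa9 0.56. Set against the all-feature median, 20 of the 36 genes stayed on their side. Median centring less the median of features of like brightness, chosen after seeing the data, is close to loess by construction and says nothing on that choice. Precision is limited by 4 arrays, and the dimmest of the 36 genes, Hspa1b and Chac1, have the least signal over background.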
